A study of Homo sapiens with 6 samples.

Results

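The respiratory genes described here are the nuclear genes of complexes III, IV and V of the inner mitochondrial membrane, together with the genes of cytochrome c1 and cytochrome c. They were taken by symbol from the deposited expression table of HCT15 cells, a line established from a human colorectal tumour, and comprise every row whose symbol starts with UQCR, with COX and a digit, or with ATP5, plus CYC1 and CYCS. The rule found 49 of the 12793 rows, each symbol once, and left out 0 hyphenated read-through symbols because none with these beginnings was listed. All 49 had a mean of at least 1 FPKM and were tested.

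RNA was measured in 6 libraries in 2 groups. The sgRBM15-labelled group has 3 libraries of HCT15 cells whose RBM15 gene was edited by CRISPR/Cas9 (genotype given as knockout), and the sgctrl group has 3 libraries of HCT15 cells labelled WT. Both groups came from the same line and were grown in serum-containing RPMI-1640, and the sources used here do not give the guides, the time after editing or whether the edited line is 1 clone. Nothing states that libraries within a group derive from independent cultures. All p-values therefore refer to library-to-library spread, possibly technical only.

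Complex III takes electrons from ubiquinol and hands them through its Rieske iron-sulfur protein and cytochrome c1 to cytochrome c, a small soluble protein of the intermembrane space. Complex IV, cytochrome c oxidase, passes them on to oxygen, and both complexes pump protons whose return through complex V, the ATP synthase, drives ATP synthesis. Cytochrome c also has a role in cell death, since its release into the cytosol starts assembly of the apoptosome. Each of these complexes combines nuclear subunits with subunits encoded in mitochondrial DNA.

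Values are FPKM, fragment numbers scaled by transcript length and library total, as the authors deposited them, so levels of different genes can be set beside each other per length. The columns summed to between 402288 and 415057 FPKM. Across genes, the correlation of log2 levels was 0.990 to 0.992 for libraries of the same group, 0.969 to 0.972 otherwise, and 0 pairs of columns were identical. Read totals could not be recovered, and depth is therefore unknown. RBM15, the targeted gene and a component of the m6A writer complex, stood at 17.3, 18.5 and 18.0 FPKM in sgRBM15-labelled libraries 1 to 3, against 5.97, 5.89 and 5.51 FPKM in sgctrl libraries 1 to 3. Its mRNA was thus 3.1-fold higher in the libraries labelled knockout (exact 2-sided permutation test, p = 0.1, the smallest that 3 against 3 libraries can give), and every direction below rests on the labels. In the list of intestinal epithelial markers, 9 of 10 genes were in the table, with a summed level of 3663 to 3809 FPKM in the sgRBM15-labelled libraries and 4099 to 4191 FPKM in the sgctrl libraries. KRT8 and KRT18 make up most of that sum. Of the 9, 7 fell and 1, KRT8, rose by the test given below, or 88.9% called, against 54.5% of all tested genes. VIL1 stood at 0.228 of the sgctrl mean, CDX2 at 0.454, CLDN3 at 0.593 and CLDN4 at 0.622. These markers moved with the groups, and their part in the results below was not tested. The lists of other cell types held COL1A1 alone of 7 fibroblast genes (0.835 to 1.41 FPKM in sgRBM15-labelled libraries, 0.917 to 1.41 FPKM in sgctrl libraries), CD14 alone of 6 immune genes (3.85 to 5.48 FPKM in sgRBM15-labelled libraries, 3.18 to 4.11 FPKM in sgctrl libraries) and 0 of 4 endothelial genes. Bulk RNA does not tell fewer cells that use a gene from less RNA per cell.

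Across the 49 genes, 7 rose and 11 fell in the sgRBM15-labelled libraries, and 31 did not pass the test (limma on log2(FPKM + 1), Benjamini-Hochberg adjusted p of at most 0.05 over all 11451 tested genes). That is 36.7% called, against 54.5% of all tested genes. By direction, 25.3% of all tested genes were higher and 29.2% lower. Values of the groups did not overlap for 21 of the 49 genes, a share of 42.9%, against 63% of all tested genes. The genes were abundant, with a median level of 98.5 FPKM over the 6 libraries against 12.7 FPKM for all tested genes, and their changes were small. Their median log2 difference was -0.025, against -0.018 over all tested genes, and their median absolute log2 difference was 0.139, against 0.206. The differences ran from -0.59 for COX19 to 0.45 for CYCS. Summed over the 49 genes, the sgRBM15-labelled libraries held 5783, 5825 and 5548 FPKM and the sgctrl libraries 5692, 5616 and 5826 FPKM, and these ranges overlap. The split by direction depended on the processing. With a trend over GC content and transcript length removed from each library, 14 of the 49 were higher and 7 lower, and without sgRBM15 replicate 2, 4 were higher and 14 lower. Of the 31 genes that did not pass, 15 gained a call in their own direction in at least 1 of 15 alternatives.

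**Figure D1:**
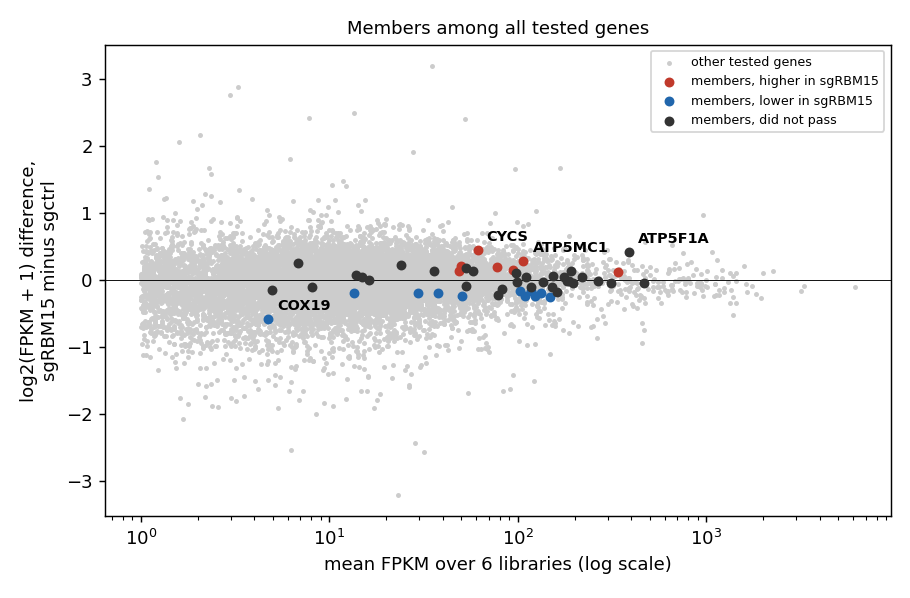
Log2(FPKM + 1) difference, sgRBM15-labelled minus sgctrl, against the mean FPKM over the 6 libraries on a log axis. Grey points are the other tested genes, and coloured or dark points are the 49 genes of complexes III, IV and V with cytochrome c, all of which lie between -0.59 and 0.45.

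**Figure D2:**
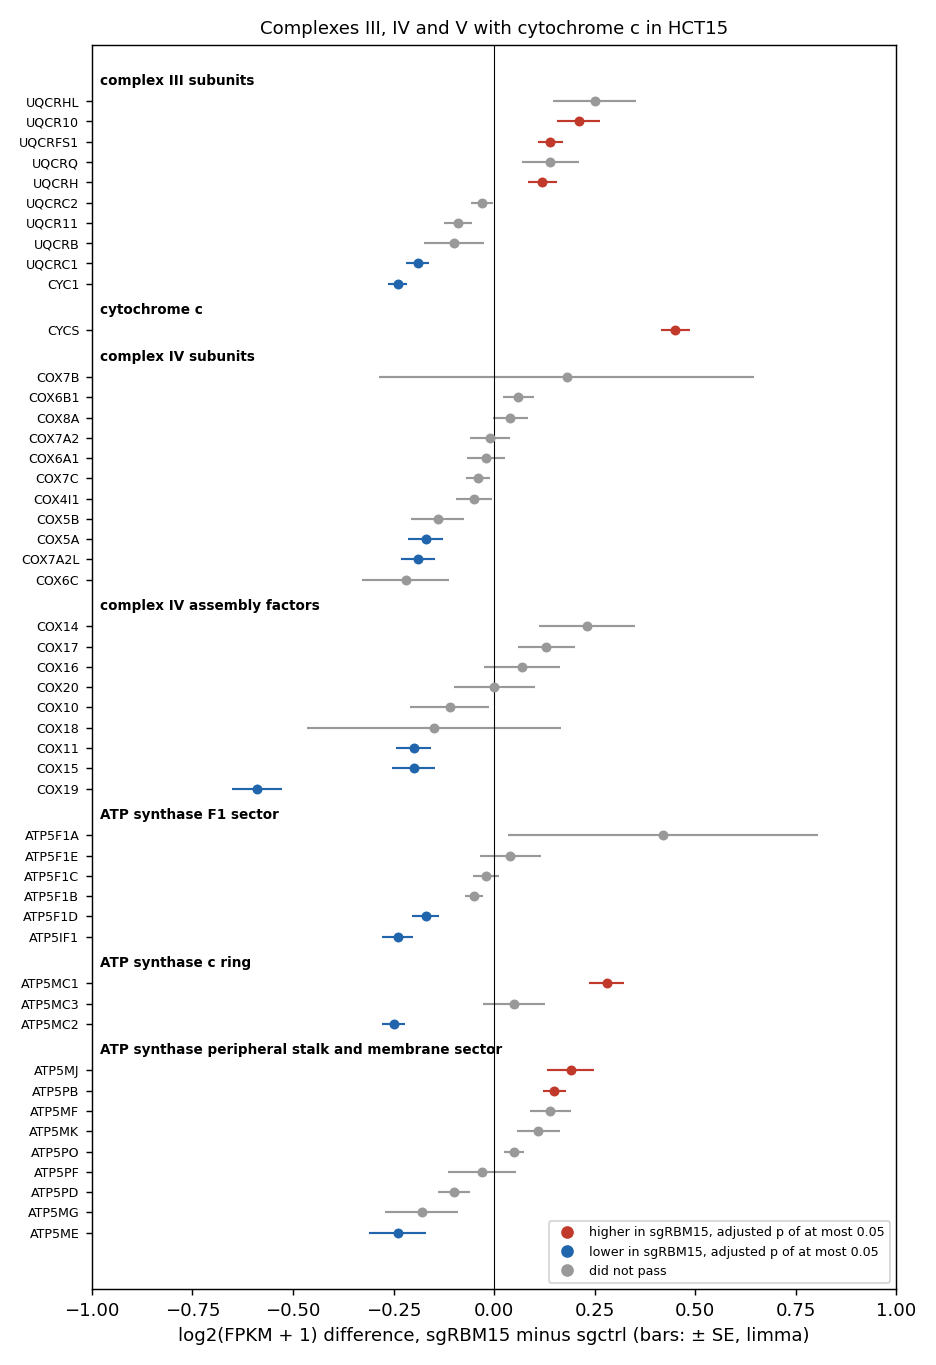
Log2(FPKM + 1) difference of each of the 49 genes, sgRBM15-labelled minus sgctrl, grouped by role, with bars of ± 1 SE from limma. Red genes rose (7), blue genes fell (11) and grey genes did not pass (31). The 3 widest bars belong to COX7B, ATP5F1A and COX18.

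CYCS, which encodes cytochrome c, had the largest increase of the 49. It stood at 73.7, 68.0 and 70.5 FPKM in the sgRBM15-labelled libraries, against 51.6, 51.1 and 51.4 FPKM in the sgctrl libraries. All 3 sgRBM15-labelled libraries lay above all sgctrl libraries, and the sgctrl values were nearly equal to each other. The means were 70.8 ± 2.87 and 51.4 ± 0.27 FPKM (SD, n = 3 each), a ratio of 1.38, with a log2 difference of 0.45 (SE 0.036, limma adjusted p = 1e-04). By exact permutation (2-sided) p was 0.1, again the lowest attainable. CYCS (ENSG00000172115) lies on the minus strand of chromosome 7 at 25120091 to 25125361 in GRCh38.

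CYC1, which encodes cytochrome c1, the complex III subunit that hands electrons to cytochrome c, fell. Its level was 112, 112 and 113 FPKM in the sgRBM15-labelled libraries and 134, 132 and 133 FPKM in the sgctrl libraries. The groups did not overlap, and the spread within each was below 1 FPKM: 112 ± 0.173 and 133 ± 0.873 FPKM (SD, n = 3 each). On the log2 scale it differed by -0.24 (SE 0.024, adjusted p = 0.000234), with p = 0.1 in the exact 2-sided permutation test. The log2 difference was -0.04 (adjusted p = 0.242) once a GC and length trend was removed. The longest CYC1 transcript has a GC content of 64.5%, against a median of 48.4% over tested genes. The part of GC content in this shift was not tested. CYC1 (ENSG00000179091) lies on chromosome 8 at 144095027 to 144097525. The ratio of CYCS to CYC1, both in FPKM, was 0.657, 0.606 and 0.627 in the sgRBM15-labelled libraries and 0.386, 0.387 and 0.387 in the sgctrl libraries. The mean ratio was thus 1.63 times as high in the sgRBM15-labelled libraries. With the GC and length trend removed, the log2 differences were nearer to each other, at 0.42 for CYCS and -0.04 for CYC1.

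**Figure D3:**
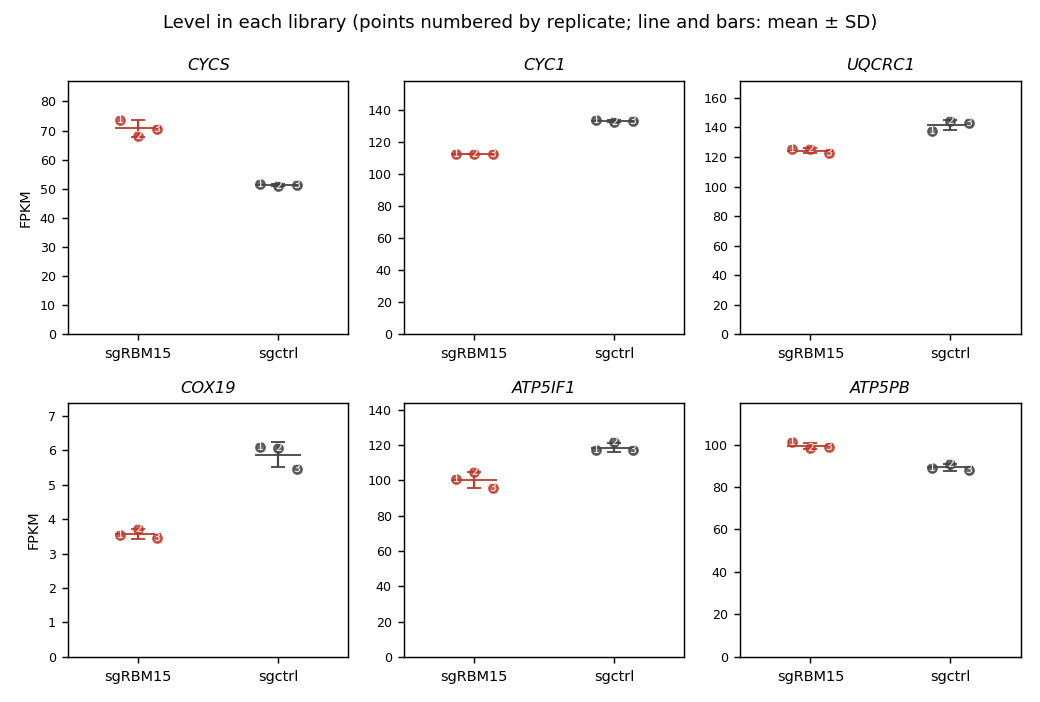
FPKM of CYCS, CYC1, UQCRC1, COX19, ATP5IF1 and ATP5PB in each library, with points numbered by replicate and the mean ± SD of 3 libraries per group. In each panel the values of the sgRBM15-labelled and sgctrl libraries do not overlap: CYCS and ATP5PB are higher, and the other 4 lower, in the sgRBM15-labelled libraries.

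Of the 10 complex III genes, CYC1 included, 3 rose and 2 fell, or 50% called, against 54.5% of all tested genes. UQCRC1, one of the pair of large core proteins on the matrix side, fell. It measured 125, 125 and 122 FPKM in the sgRBM15-labelled libraries, against 138, 144 and 143 FPKM in the sgctrl libraries. The log2 difference was -0.19 (SE 0.029, adjusted p = 0.00156), and it was -0.05 (adjusted p = 0.113) with the GC and length trend removed; its longest transcript has 59.5% GC. UQCRC2, the other core protein gene, had 135, 132 and 136 FPKM in the sgRBM15-labelled libraries, against 136, 136 and 139 FPKM in the sgctrl libraries. Its groups overlapped and it did not pass (log2 difference -0.03, adjusted p = 0.387).

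UQCRFS1, which encodes the Rieske iron-sulfur protein, rose. Its level was 50.7, 52.1 and 50.2 FPKM in the sgRBM15-labelled libraries and 45.7, 46.9 and 46.0 FPKM in the sgctrl libraries, without overlap (log2 difference 0.14, SE 0.031, adjusted p = 0.00778). The Rieske protein passes its electron to cytochrome c1, whose transcript fell, a call that was lost with the GC and length trend removed (-0.04, adjusted p = 0.242).

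UQCR10, a small subunit, also rose. It stood at 56.5, 55.2 and 49.2 FPKM in the sgRBM15-labelled libraries and at 45.9, 47.3 and 45.8 FPKM in the sgctrl libraries (log2 difference 0.21, SE 0.054, adjusted p = 0.0157). Its call was lost without sgRBM15 replicate 2 (0.19, adjusted p = 0.0509). UQCRH, the hinge protein that contacts cytochrome c1 and the most abundant complex III transcript, rose as well, with 365, 357 and 344 FPKM in the sgRBM15-labelled libraries and 314, 331 and 337 FPKM in the sgctrl libraries. This call was close to the threshold (log2 difference 0.12, SE 0.036, adjusted p = 0.0288). It was lost without sgRBM15 replicate 1 (0.10), sgRBM15 replicate 2 (0.12), sgctrl replicate 1 (0.09) or sgctrl replicate 2 (0.13), with no variance trend and with a replicate block (adjusted p = 0.0679 and 0.0715).

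UQCRHL is a copy of UQCRH at another locus of chromosome 1, so reads may be divided between the pair and both levels are uncertain in that respect. It had 7.60, 8.62 and 6.22 FPKM in the sgRBM15-labelled libraries and 5.89, 6.05 and 6.37 FPKM in the sgctrl libraries, which overlap, and did not pass (adjusted p = 0.082). UQCRB, UQCRQ and UQCR11, further small subunits, did not pass either, with log2 differences of -0.10, 0.14 and -0.09. UQCRQ was called higher with the GC and length trend removed (0.21, adjusted p = 0.0359), UQCRHL higher without sgRBM15 replicate 3 (0.36, adjusted p = 0.00888) and UQCR11 lower without sgRBM15 replicate 2 (-0.11, adjusted p = 0.0455). The summed level of the 10 genes was 1081, 1082 and 1027 FPKM in the sgRBM15-labelled libraries, against 1054, 1075 and 1076 FPKM in the sgctrl libraries, so the groups overlapped for the complex as a whole.

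Of the 11 genes counted as complex IV subunits, COX7A2L included, 0 rose, 2 fell and 9 did not pass, or 18.2% called, against 54.5% of all tested genes. With the GC and length trend removed, COX6B1 (0.18, adjusted p = 0.00129) and COX8A (0.18, adjusted p = 0.00118) were called higher. COX5A, a subunit on the matrix side, had 98.1, 97.4 and 94.7 FPKM in the sgRBM15-labelled libraries, against 106, 106 and 116 FPKM in the sgctrl libraries. The groups did not overlap (log2 difference -0.17, SE 0.043, adjusted p = 0.0124). The call was lost with the GC and length trend removed (-0.11, adjusted p = 0.0624), and the longest COX5A transcript has 47.9% GC. The median over tested genes is 48.4%. COX7A2L, which promotes the association of complexes III and IV into supercomplexes, also fell. Its level was 35.4, 35.4 and 34.1 FPKM in the sgRBM15-labelled libraries and 40.9, 38.1 and 41.5 FPKM in the sgctrl libraries (log2 difference -0.19, SE 0.042, adjusted p = 0.00706). Its relative COX7A2, the subunit of the enzyme itself, stood at 193, 193 and 173 FPKM in the sgRBM15-labelled libraries and 189, 194 and 181 FPKM in the sgctrl libraries, which overlap. COX7A2 did not pass (log2 difference -0.01, adjusted p = 0.857), and the ratio of COX7A2L to COX7A2 overlapped slightly between the groups (0.183, 0.183 and 0.1965 in sgRBM15-labelled libraries, 0.217, 0.1964 and 0.229 in sgctrl libraries).

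The most abundant complex IV transcript was COX4I1, the subunit at which ATP is known to regulate the enzyme. It had 316, 315 and 289.8 FPKM in the sgRBM15-labelled libraries and 306, 329 and 315 FPKM in the sgctrl libraries, with overlapping groups (log2 difference -0.05, adjusted p = 0.416). COX6A1 came next with 272, 265 and 257 FPKM in the sgRBM15-labelled libraries and 250.3, 281 and 277 FPKM in the sgctrl libraries, again overlapping (log2 difference -0.02, adjusted p = 0.691). COX5B, COX6B1, COX6C, COX7C and COX8A did not pass, with log2 differences of -0.14, 0.06, -0.22, -0.04 and 0.04. COX5B was called lower without sgRBM15 replicate 2 (-0.20, adjusted p = 0.0215) and with a replicate block (adjusted p = 0.0453), and COX7C after quantile normalization (-0.08, adjusted p = 0.0276). The summed level of the 11 genes was 1696, 1750.4 and 1571 FPKM in the sgRBM15-labelled libraries, against 1684, 1747 and 1698 FPKM in the sgctrl libraries.

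Among the 9 assembly factors of complex IV with a COX symbol, 0 rose and 3 fell, or 33.3% called, against 54.5% of all tested genes. These factors were far less abundant than the subunits (4.72 to 36.0 FPKM over all libraries, against 37.5 to 311.8 FPKM). COX19, a copper-binding protein of the intermembrane space that works with the copper chaperones of complex IV, had the largest fall of the 49. It stood at 3.53, 3.72 and 3.45 FPKM in the sgRBM15-labelled libraries, against 6.11, 6.06 and 5.46 FPKM in the sgctrl libraries. All sgRBM15-labelled values lay below all sgctrl values, at 0.607 of the sgctrl mean (log2 difference -0.59, SE 0.063, adjusted p = 0.000321). COX19 (ENSG00000240230) lies on the minus strand of chromosome 7 at 898778 to 975599, and its exons share 1186 bp with those of ADAP1 on the same strand. ADAP1 fell as well, with 22.5, 23.4 and 23.4 FPKM in the sgRBM15-labelled libraries and 35.8, 33.6 and 33.1 FPKM in the sgctrl libraries (log2 difference -0.54, adjusted p = 9.01e-05). How reads of the shared exons were divided, and its part in the COX19 result, was not tested.

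COX11, which helps deliver copper to the catalytic core, fell. Its level was 28.96, 26.5 and 26.9 FPKM in the sgRBM15-labelled libraries and 32.3, 31.5 and 31.3 FPKM in the sgctrl libraries (log2 difference -0.20, SE 0.043, adjusted p = 0.00643). On the opposite strand 909 bp of its exons overlap TOM1L1, which also fell (-0.27, adjusted p = 0.0046), and the sources used here do not say whether counting used strand. COX15, which makes heme A for the enzyme, had 12.4, 12.5 and 12.6 FPKM in the sgRBM15-labelled libraries, against 14.8, 13.4 and 15.2 FPKM in the sgctrl libraries. The groups did not overlap (log2 difference -0.20, SE 0.053, adjusted p = 0.0172), but the call was lost without sgctrl replicate 1 (-0.18, adjusted p = 0.0554) or sgctrl replicate 3 (-0.16, adjusted p = 0.0564). COX10, which makes the heme O that COX15 uses, did not pass (log2 difference -0.11, adjusted p = 0.376), except without sgctrl replicate 1 (-0.21, adjusted p = 0.0428).

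COX17, the chaperone that brings copper into the pathway, did not pass. It had 38.6, 38.3 and 35.9 FPKM in the sgRBM15-labelled libraries and 31.9, 38.4 and 33.1 FPKM in the sgctrl libraries, with overlap (log2 difference 0.13, adjusted p = 0.167). It was called higher with the GC and length trend removed (0.17, adjusted p = 0.0397) and without sgctrl replicate 2 (0.20, adjusted p = 0.0159). The ratio of COX19 to COX17 in FPKM was 0.0914, 0.097 and 0.0961 in the sgRBM15-labelled libraries and 0.192, 0.158 and 0.165 in the sgctrl libraries. COX14, COX16 and COX20, which handle newly made mitochondrial subunits, did not pass, with log2 differences of 0.23, 0.07 and 0.00. Exons of COX16 share 671 bp on the same strand with the read-through SYNJ2BP-COX16, which has its own row. COX14 was called higher with the GC and length trend removed (0.35, adjusted p = 0.0395) and without sgctrl replicate 3 (0.37, adjusted p = 0.00816).

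The catalytic F1 sector of the ATP synthase and its inhibitor comprised 6 genes, of which 0 rose and 2 fell. That is 33.3% called, against 54.5% of all tested genes. ATP5IF1, which encodes the inhibitory factor that binds F1 and blocks ATP hydrolysis, fell. It stood at 101, 105 and 95.8 FPKM in the sgRBM15-labelled libraries, against 117, 122 and 117 FPKM in the sgctrl libraries, without overlap (log2 difference -0.24, SE 0.039, adjusted p = 0.00208). Relative to ATP5F1B, the catalytic beta subunit, its level was 0.218, 0.231 and 0.21 in the sgRBM15-labelled libraries and 0.247, 0.259 and 0.247 in the sgctrl libraries. ATP5F1B itself was the most abundant of the 49. It had 462, 454 and 457 FPKM in the sgRBM15-labelled libraries and 475, 469.7 and 474 FPKM in the sgctrl libraries, which did not overlap, though the log2 difference of -0.05 did not pass (adjusted p = 0.103) and turned to 0.08 (adjusted p = 0.0408) under quantile normalization.

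ATP5F1D, the delta subunit of the central stalk, fell. Its level was 113, 109 and 109.9 FPKM in the sgRBM15-labelled libraries and 125, 128 and 120.3 FPKM in the sgctrl libraries (log2 difference -0.17, SE 0.034, adjusted p = 0.00469). This direction turned with the GC and length trend removed (0.03, adjusted p = 0.486), and its longest transcript has 63.9% GC. ATP5F1C and ATP5F1E, the gamma and epsilon subunits, did not pass (log2 differences -0.02 and 0.04). ATP5F1E had the lowest level of the sector, 15.2 ± 0.898 FPKM in the sgRBM15-labelled libraries and 14.8 ± 1.41 FPKM in the sgctrl libraries (SD, n = 3 each).

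The c ring, the rotor through which protons pass, held paralogs that changed in opposite directions. The genes ATP5MC1, ATP5MC2 and ATP5MC3 encode precursors that differ in their import sequences and give the same mature c subunit. ATP5MC1 rose, with 114, 121 and 118 FPKM in the sgRBM15-labelled libraries against 91.6, 97.4 and 101 FPKM in the sgctrl libraries (log2 difference 0.28, SE 0.043, adjusted p = 0.00164). ATP5MC2 fell, with 138, 137 and 132 FPKM in the sgRBM15-labelled libraries against 161, 162 and 160.2 FPKM in the sgctrl libraries (log2 difference -0.25, SE 0.028, adjusted p = 0.000419). Neither gene's groups overlapped. ATP5MC3 had 112, 108 and 118 FPKM in the sgRBM15-labelled libraries and 96.4, 113 and 118 FPKM in the sgctrl libraries, which overlap, and did not pass (log2 difference 0.05, adjusted p = 0.593). The sum of the 3 genes was 364, 366 and 368 FPKM in the sgRBM15-labelled libraries and 349, 372 and 379.6 FPKM in the sgctrl libraries, with means of 366 ± 1.82 and 367 ± 15.8 FPKM (SD, n = 3 each).

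Within that sum, ATP5MC1 made up 31.3%, 33.0% and 31.9% in the sgRBM15-labelled libraries, against 26.2%, 26.2% and 26.7% in the sgctrl libraries. The share of ATP5MC2 was 37.9%, 37.5% and 35.9% in the sgRBM15-labelled libraries, against 46.2%, 43.5% and 42.2% in the sgctrl libraries. Neither share overlapped between the groups, whereas the total did. Part of the exons of ATP5MC2 (279 bp) coincides with an annotated pseudogene on the same strand, and part of those of ATP5MC3 (393 bp) with one on the opposite strand.

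**Figure D4:**
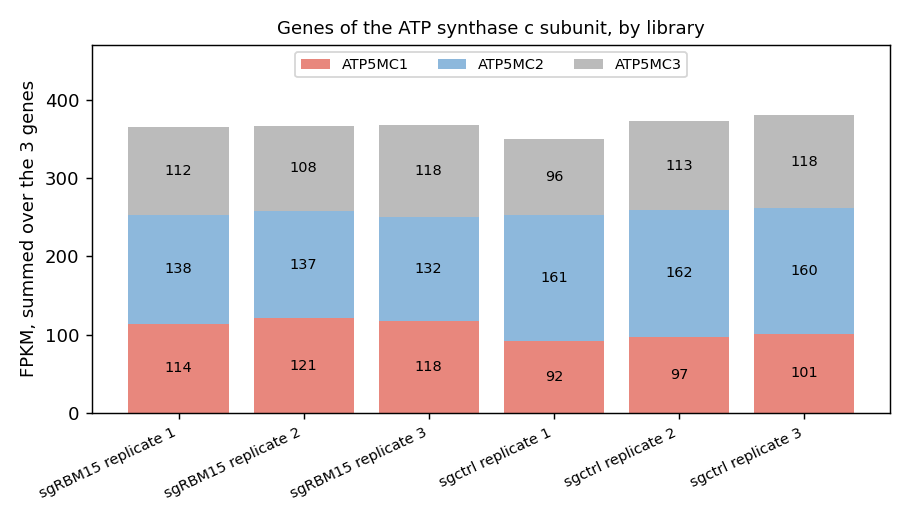
FPKM of ATP5MC1, ATP5MC2 and ATP5MC3 stacked for each library, sgRBM15-labelled libraries on the left and sgctrl libraries on the right. The stacks total 364 to 368 FPKM in the sgRBM15-labelled libraries and 349 to 379.6 FPKM in the sgctrl libraries, with more ATP5MC1 and less ATP5MC2 in the sgRBM15-labelled libraries.

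Because these paralogs give one protein from separate promoters, the promoter windows of the pair that moved apart are shown beside that of CYCS. The windows run from 250 bases before to 50 bases after the RefSeq transcript start (RefSeq, GRCh38.p14), 5′ to 3′ on the strand of the gene, and each begins at the upstream end. They are chr7:25125211-25125510 on the minus strand for CYCS, chr17:48892537-48892836 on the plus strand for ATP5MC1 and chr12:53676034-53676333 on the minus strand for ATP5MC2. Only the first window listed for each symbol was used, here and in the counts below. The annotated ATP5MC2 gene extends to 53677408, upstream of its window, so that window may not hold its main promoter. Which starts these cells use was not tested. Capitals mark any match, on either strand, to the core palindrome bound by NRF1, CCGGAAG (ETS factors such as GABP), AAGATGGC (YY1), TGACGTCA (the cAMP response element), CCAAT (NF-Y) or GGGCGG (SP1).
CYCS: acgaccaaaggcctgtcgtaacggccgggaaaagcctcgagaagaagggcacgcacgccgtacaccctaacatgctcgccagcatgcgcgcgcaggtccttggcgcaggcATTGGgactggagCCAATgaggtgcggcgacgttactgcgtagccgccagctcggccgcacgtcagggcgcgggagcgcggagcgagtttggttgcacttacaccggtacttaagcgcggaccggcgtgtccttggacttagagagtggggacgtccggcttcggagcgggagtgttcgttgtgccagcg
ATP5MC1: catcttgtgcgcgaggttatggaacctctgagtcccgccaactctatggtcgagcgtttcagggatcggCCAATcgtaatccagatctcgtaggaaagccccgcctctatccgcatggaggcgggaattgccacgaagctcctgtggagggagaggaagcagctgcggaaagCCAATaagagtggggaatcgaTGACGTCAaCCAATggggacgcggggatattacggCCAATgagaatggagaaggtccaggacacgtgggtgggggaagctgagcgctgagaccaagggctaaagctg
ATP5MC2: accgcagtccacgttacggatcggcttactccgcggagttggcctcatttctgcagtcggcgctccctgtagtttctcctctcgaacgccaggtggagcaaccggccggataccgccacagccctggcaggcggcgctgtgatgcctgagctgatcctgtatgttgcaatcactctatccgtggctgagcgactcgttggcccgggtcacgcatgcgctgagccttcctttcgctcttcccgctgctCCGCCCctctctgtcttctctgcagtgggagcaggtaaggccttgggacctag
The CYCS window held CCAAT 2 times, starting at -140 and -127 relative to the transcript start. The ATP5MC1 window held CCAAT 4 times, at -181, -78, -48 and -22, and TGACGTCA at -57. The ATP5MC2 window held GGGCGG on the reverse strand at -3 and none of the other 5 motifs. CCAAT was in 37.3% of 9137 windows of tested genes and 35.7% of all 27305 windows, TGACGTCA in 3.45% and 1.98%, and GGGCGG in 72.5% and 44.6%. A match is only a match of letters.

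Of the 49 genes, 40 had a promoter window. The NRF1 motif was in 10 of these 40 (25%), against 12.7% of 9137 windows of tested genes and 6.28% of all windows. CCGGAAG was in 16 (40%), against 21.1% and 10.7%. The shares of the 40 windows with CCAAT, TGACGTCA, AAGATGGC and GGGCGG were 45%, 5%, 12.5% and 62.5%, against 37.3%, 3.45%, 5.89% and 72.5% of windows of tested genes. By response, the NRF1 motif was in 3 of 7 genes that rose, 2 of 8 that fell and 5 of 25 that did not pass. CCGGAAG was in 1 of 7, 2 of 8 and 13 of 25. These counts are descriptions of letters in the windows and were not tested.

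The peripheral stalk and membrane sector of the ATP synthase held 9 further genes, of which 2 rose and 1 fell. That is 33.3% called, against 54.5% of all tested genes. ATP5PB, subunit b of the peripheral stalk, rose, with 101, 98.5 and 98.8 FPKM in the sgRBM15-labelled libraries against 89.0, 91.1 and 87.8 FPKM in the sgctrl libraries (log2 difference 0.15, SE 0.028, adjusted p = 0.00344). Exons of ATP5PB and WDR77 share 350 bp on opposite strands, and WDR77 rose too (0.52, adjusted p = 4.28e-05). ATP5MJ, a small membrane subunit, had 86.4, 82.7 and 79.2 FPKM in the sgRBM15-labelled libraries and 66.7, 77.1 and 73.6 FPKM in the sgctrl libraries, without overlap. Its call (log2 difference 0.19, SE 0.059, adjusted p = 0.0297) was lost without sgRBM15 replicate 1 (0.16), sgRBM15 replicate 2 (0.19), sgctrl replicate 1 (0.13) or sgctrl replicate 3 (0.20), and with a replicate block (adjusted p = 0.0575).

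ATP5ME, subunit e, which takes part in dimers of the enzyme, fell. It stood at 48.0, 48.6 and 41.7 FPKM in the sgRBM15-labelled libraries, against 53.7, 58.8 and 51.8 FPKM in the sgctrl libraries (log2 difference -0.24, SE 0.071, adjusted p = 0.0233), and the call was lost without sgctrl replicate 2 (-0.19, adjusted p = 0.0703). MYL5, whose exons overlap 579 bp of ATP5ME on the opposite strand, fell as well (-1.31, adjusted p = 0.000129). Each of the called genes COX19, COX11, ATP5PB and ATP5ME thus has an overlapping neighbour called in its own direction. Over all tested genes, 25.3% were called higher and 29.2% lower. Neighbours were compared for called genes only, and not for uncalled genes such as COX20, which shares 3502 bp with HNRNPU on the opposite strand. COX11 also shares 59 bp with STXBP4 on the opposite strand, for which no value is given here. The part of these overlaps in the results was not tested.

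ATP5MF, subunit f, was the most abundant of the sector, with 199.99, 208 and 193 FPKM in the sgRBM15-labelled libraries and 170.3, 194 and 184 FPKM in the sgctrl libraries. The groups overlapped slightly and the log2 difference of 0.14 did not pass (adjusted p = 0.062). It passed in 5 alternatives: with the GC and length trend removed (0.28, adjusted p = 0.000916), on the TPM scale (0.16), with median centring (0.16), with a replicate block and without sgctrl replicate 2 (0.18). ATP5PO, the stalk subunit that joins it to F1, had 177, 179 and 180.1 FPKM in the sgRBM15-labelled libraries and 175, 170.1 and 174 FPKM in the sgctrl libraries; these did not overlap, and the log2 difference of 0.05 did not pass (adjusted p = 0.154), though it did with median centring (0.07, adjusted p = 0.0426). ATP5PD, ATP5PF, ATP5MG and ATP5MK did not pass, with log2 differences of -0.10, -0.03, -0.18 and 0.11. ATP5MK was called higher with the GC and length trend removed (0.17, adjusted p = 0.0123) and without sgctrl replicate 2 (0.15). Leaving out 1 library also gave calls of lower for ATP5PD (without sgRBM15 replicate 2 or sgctrl replicate 3) and ATP5MG (without sgRBM15 replicate 3). Over all 18 ATP synthase genes, 3 rose and 4 fell, or 38.9% called, against 54.5% of all tested genes. Their median log2 difference was 0.013.

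For 3 of the 49 genes, libraries of one group differed by more than 1.5-fold. Over all tested genes, whose median level was lower (12.7 against 98.5 FPKM), the share was 8.65%. ATP5F1A, the alpha subunit of F1, stood at 434, 427 and 415 FPKM in the sgRBM15-labelled libraries and at 449, 156 and 455 FPKM in the sgctrl libraries. Control replicate 2 alone was low, while ATP5F1B in that library was in range, so the ratio of ATP5F1A to ATP5F1B was 0.333 there and between 0.908 and 0.960 in the other 5 libraries. The log2 difference of ATP5F1A was 0.42 (SE 0.385, adjusted p = 0.385) with all libraries and -0.09 (adjusted p = 0.0619) without sgctrl replicate 2.

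COX7B, a small complex IV subunit, had 37.7, 97.5 and 36.3 FPKM in the sgRBM15-labelled libraries and 80.3, 35.9 and 31.5 FPKM in the sgctrl libraries. The highest library was 2.68 times the lowest in the sgRBM15-labelled group and 2.54 times in the sgctrl group, and the log2 difference of 0.18 did not pass (adjusted p = 0.764). COX18, which inserts a mitochondrial subunit into the membrane, showed the same kind of spread, with 3.46, 6.69 and 3.60 FPKM in the sgRBM15-labelled libraries and 3.76, 3.85 and 8.42 FPKM in the sgctrl libraries (log2 difference -0.15, adjusted p = 0.704). For the other 46 genes, the highest library of a group was at most 1.44 times the lowest.

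**Figure D5:**
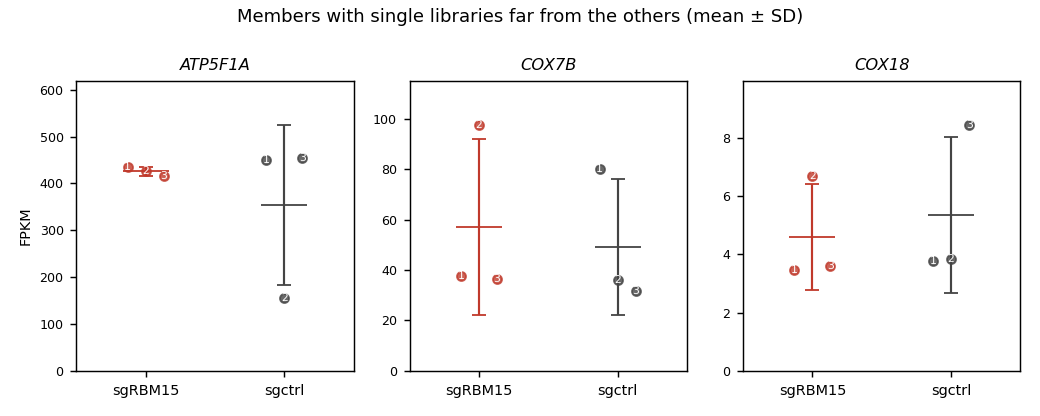
FPKM of ATP5F1A, COX7B and COX18 in each library, with points numbered by replicate and the mean ± SD of 3 libraries per group. ATP5F1A is low in sgctrl replicate 2, COX7B is high in sgRBM15 replicate 2 and sgctrl replicate 1, and COX18 is high in sgRBM15 replicate 2 and sgctrl replicate 3.

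Genes that serve the same complexes without carrying their symbols were read from further lists, against the 54.5% of all tested genes that were called (25.3% higher, 29.2% lower). Of 11 complex III assembly genes, 4 rose and 3 fell, or 63.6% called. BCS1L, the chaperone that installs the Rieske protein, rose to 31.3 ± 0.489 FPKM in the sgRBM15-labelled libraries, against 24.6 ± 2.16 FPKM in the sgctrl libraries (SD, n = 3 each; log2 difference 0.34, adjusted p = 0.00346). TTC19, which clears Rieske fragments after assembly, fell to 48.3 ± 2.61 FPKM in the sgRBM15-labelled libraries, against 61.2 ± 0.872 FPKM in the sgctrl libraries (-0.34, adjusted p = 0.000711). OCIAD2 fell by 0.32, and UQCC5 rose by 0.45, a call lost without sgctrl replicate 1 (0.38, adjusted p = 0.0693) and with a replicate block (adjusted p = 0.0536).

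Of 23 further assembly and RNA factors of complex IV, with NDUFA4 counted among them, 8 rose and 7 fell, or 65.2% called. CMC1, a factor that holds newly made COX1, fell to 13.1 ± 0.796 FPKM in the sgRBM15-labelled libraries, against 21.7 ± 0.997 FPKM in the sgctrl libraries (log2 difference -0.68, adjusted p = 0.000116). CMC2, a related protein, rose to 50.5 ± 3.22 FPKM in the sgRBM15-labelled libraries, against 39.3 ± 1.15 FPKM in the sgctrl libraries (0.35, adjusted p = 0.00124). The copper factor gene COA6 rose by 0.46, a call lost without sgctrl replicate 2 (0.43, adjusted p = 0.0517). SCO2, also a copper factor gene, was called higher (0.54) at a low level (1.59 ± 0.283 FPKM in the sgRBM15-labelled and 0.782 ± 0.257 FPKM in the sgctrl libraries). It is counted among the 8, but reached the filter of 1 FPKM only through the sgRBM15-labelled libraries, so its call is not read as a result. The list of ATP synthase assembly and regulation held 10 symbols, of which 7 were tested. The others, ATPIF1, USMG5 and C14orf2, are older symbols of ATP5IF1, ATP5MK and ATP5MJ, described above. Of the 7, 1 rose and 2 fell, or 42.9% called, against 54.5% of all tested genes. TMEM70, which helps form the c ring, rose by 0.30 (adjusted p = 0.00357), and the F1 chaperone gene ATPAF2 fell by 0.35 (adjusted p = 0.0103). FMC1 fell by 1.21, a call lost without sgRBM15 replicate 1 (-1.11) or 3 (-0.89) and without sgctrl replicate 2 (-1.18) or 3 (-1.12).

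Of 12 genes of cytochrome c maturation and the apoptosome, 5 rose and 1 fell, or 50% called, against 54.5% of all tested genes. APAF1, the scaffold that cytochrome c binds, stood at 8.33, 8.72 and 9.09 FPKM in the sgRBM15-labelled libraries, against 6.76, 6.45 and 6.25 FPKM in the sgctrl libraries (log2 difference 0.38, adjusted p = 0.00113). CASP9, the protease that the scaffold activates, fell, with 4.81, 5.25 and 4.99 FPKM in the sgRBM15-labelled libraries against 6.30, 7.41 and 7.05 FPKM in the sgctrl libraries (-0.39, adjusted p = 0.00269). BAK1, which encodes a pore protein of the outer mitochondrial membrane, rose by 0.29. HCCS, which attaches heme to cytochrome c, did not pass (14.2 FPKM on average in the sgRBM15-labelled and 13.6 FPKM in the sgctrl libraries, adjusted p = 0.516).

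Of 19 regulators of respiratory chain transcription and mitochondrial DNA, 17 were tested, and 9 rose and 1 fell, or 58.8% called, against 54.5% of all tested genes (25.3% higher, 29.2% lower). PPRC1, a coactivator of the PGC-1 family, rose to 17.5 ± 1.73 FPKM in the sgRBM15-labelled libraries, against 11.6 ± 1.29 FPKM in the sgctrl libraries (log2 difference 0.56, adjusted p = 0.00265). TFAM, which packages mitochondrial DNA and helps start its transcription, had 27.3, 28.9 and 27.8 FPKM in the sgRBM15-labelled libraries, against 20.7, 18.0 and 20.7 FPKM in the sgctrl libraries (0.48, adjusted p = 0.000694). PPARGC1B rose by 0.40 at a level near the filter of 1 FPKM (1.75 ± 0.162 FPKM in the sgRBM15-labelled and 1.08 ± 0.125 FPKM in the sgctrl libraries). POLG, the polymerase of mitochondrial DNA, rose by 0.35. NRF1, the factor whose motif was counted above, did not pass (log2 difference -0.08, adjusted p = 0.299).

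The subunits of complexes I and II, upstream in the same chain, comprised 41 genes, of which 3 rose and 12 fell, or 36.6% called, against 54.5% of all tested genes, with a median log2 difference of -0.066. NDUFA7 fell by 0.57, a call lost with the GC and length trend removed (-0.45, adjusted p = 0.0728) and without sgctrl replicate 2 (-0.54) or 3 (-0.54). NDUFS7 fell by 0.40, NDUFS8 by 0.36 and NDUFS4 by 0.30. Whether the balance of directions differs between these sets was not tested. Of the 6 mRNAs of complexes III, IV and V that are encoded in mitochondrial DNA, 0 were found in the deposited table, so they could not be analysed.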

How the data were processed

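RNA-seq of 6 HCT15 libraries was deposited as 1 table. The authors deposited FPKM per gene, per the file headers, made with HISAT2 2.2.1 and StringTie 2.0.4 on hg38 per the submitters' processing notes. The sources used here do not give their settings, annotation, use of strand or row filter. Columns were matched to libraries by name, and groups came from the titles. Depth is unknown, since at most 0.93% of ratios of low values fell in any window of 0.1%, so whole reads were not recovered, and precision rests on 3 libraries per group.

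FPKM are not counts. limma 3.58.1 in R 4.3.3 was fitted to log2(FPKM + 1) of the 11451 genes that averaged 1 FPKM or more, without covariates and with a variance trend; this scale understates changes of low genes. P-values are 2-sided, with Benjamini-Hochberg adjustment over all tested genes and a threshold of 0.05. On simulated data of 3 against 3 libraries with 11451 genes, 82% of genes changed 1.25-fold and 98% of those changed 1.5-fold were called, and 12 of 11251 unchanged genes were called. The changed genes were few, all above about 5 FPKM, with normally distributed spread and no stray libraries. In the data 54.5% of tested genes were called, some low genes among them, so these rates need not hold there. GC content, length, overlaps and coordinates came from GENCODE 29 (GRCh38), matched by gene identifier for 12220 of 12793 rows. Tables were handled in Python 3.11.15 with numpy 2.4.6 and pandas 2.3.3, permutations used scipy 1.17.1, and plots were drawn with matplotlib 3.10.9.

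The members and lists were chosen with earlier results of these data known. Library values are given for called members, the 2 most abundant of each role group and members with an isoform partner; from each other list, up to 4 called genes with the largest difference are named. Other genes with values were ADAP1, TOM1L1, WDR77, MYL5, COX7B, COX18, UQCRHL, HCCS and NRF1, chosen after their values were seen. Alternatives were quantile normalization, median centring, rescaling to equal column sums (TPM scale), 0.1 as pseudocount, dropping the filter or raising it to 5 FPKM, removal of a GC and length trend (values for 97.5% of tested genes), no variance trend, a replicate block and leaving out each library.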

Additional observations from a re-analysis of the deposited data

How the results depend on the processing

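Of the 18 called genes, 9 kept direction and call in every alternative that tested them: UQCRFS1, CYCS, COX7A2L, COX11, COX19 (mean under 5 FPKM, so not tested with that filter), ATP5IF1, ATP5MC1, ATP5MC2 and ATP5PB. A further 8 lost the call in at least 1 of 15 alternatives, and ATP5F1D turned. Of the 31 uncalled genes, 15 gained a call in their own direction in at least 1. Outside that count, ATP5F1B gained a call in the other direction under quantile normalization (0.076, adjusted p = 0.0408). Removing a GC and length trend moved the split to 14 higher and 7 lower, and the cause was not tested. Leaving out 1 library gave 4 to 9 higher genes, with 4 without sgRBM15 replicate 2, 10 to 14 lower genes and 16 to 20 called genes. Over all tested genes, 2896 were higher and 3349 lower as deposited, against 3367 and 2894 after quantile normalization, and 5782 were called with a replicate block. The block called 18 of the 49 genes, 6 higher and 12 lower. Same-numbered libraries did not deviate together (correlations -0.035, -0.037 and 0), so the numbers were not taken as pairs.

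Several log2 differences changed sign. With the GC and length trend removed they became 0.008 for UQCR11, 0.018 for COX6A1, 0.039 for COX7A2, 0.006 for COX7C, 0.001 for COX20, 0.017 for ATP5F1B, 0.038 for ATP5F1C, 0.032 for ATP5F1D, -0.011 for ATP5MC3 and 0.071 for ATP5PF. With median centring they became 0.003 for COX6A1, 0.016 for COX7A2, 0.024 for COX20, 0.012 for ATP5F1C and 0.001 for ATP5PF, and on the TPM scale 0.013 for COX7A2, 0.019 for COX20 and 0.008 for ATP5F1C. Quantile normalization gave 0.031 for COX6A1, 0.022 for COX20 and 0.076 for ATP5F1B. Leaving out 1 library changed the sign of 10 uncalled genes, over these ranges: COX6A1 -0.077 to 0.007, COX7A2 -0.038 to 0.040, COX7B -0.277 to 0.591, COX16 -0.021 to 0.129, COX18 -0.408 to 0.171, COX20 -0.101 to 0.067, ATP5F1A -0.087 to 0.680, ATP5F1E -0.035 to 0.086, ATP5MC3 -0.035 to 0.111 and ATP5PF -0.087 to 0.048. The cause was not tested. Read depth is unknown, so counting error at low levels such as COX19 or SCO2 could not be given.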
